A study of Brassica napus with 8 samples.

Results

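Seed labelled 50 DPA was compared with young leaf in rapeseed (Brassica napus), an oil crop whose genome joins an A and a C subgenome. The comparison used the 2 libraries of each tissue, chosen by tissue label, which are 4 of the 8 libraries of the series. All came from cultivar Zhongshuang 11, with no treatment named, and poly(A) RNA was sequenced as paired reads. DPA is not spelled out in the labels, and usually stands for days post anthesis. The other 4 libraries, from dry seed and from seed after 48 h of germination, entered the model fit and serve below as further measurements of the same genes.

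The labels place agronomically important organs in the field and vegetative tissues in a greenhouse, so tissue and growth place cannot be told apart here. They do not say which parts of the seed were taken. Nor is it stated that the libraries of one tissue were made from different plants. The p-values therefore rest on the difference between such a pair of libraries, and that difference may be technical. In such bulk samples, fewer cells of a type and less RNA per cell cannot be told apart.

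As background, a maturing rapeseed embryo fills with storage proteins, chiefly napins and cruciferins, and with oil bodies coated by oleosins. Transcripts of these few families can make up a large part of seed messenger RNA. A young leaf builds photosynthetic membranes and carbon fixation enzymes, and is known for abundant transcripts of the RuBisCO small subunit and of chlorophyll a/b-binding proteins. The files do not pair gene IDs with names, and 0 of 106059 IDs matched the gene table used here, so no gene below is assigned to any of these families. For the same reason the tissue labels could not be checked against marker genes. An ID does carry its subgenome and chromosome, with 44373 A, 61069 C and 617 unplaced IDs.

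Total counts were 35000319 and 36463920 in leaf and 33861108 and 36535168 in 50 DPA seed, within the range of 27635445 to 55721357 over all 8 libraries. No count was found for 36881 IDs in the 4 libraries. A further 52714 IDs were counted in both tissues, 5258 only in seed and 11206 only in leaf. Levels below are CPM, in which each library's counts are brought to one common total, with TMM factors, which set library scales on the premise that most genes do not change. They are not divided by gene length.

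The 50 DPA seed transcriptome was concentrated in few genes and the leaf transcriptome was not. The most abundant 181 and 189 genes held 50% of the counts of the 2 seed libraries, against 2844 and 2877 genes in leaf. Effective gene numbers, the exponential of the Shannon entropy of the count shares, were 2257 and 2295 in seed and 13469 and 13596 in leaf. Both measures separated the tissues with no overlap, and the libraries of a tissue lay close together. The tail differed less, since 90% of counts took 12398 ± 21.9 genes in seed and 21084 ± 92.6 in leaf (SD, n = 2).

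The 2 most abundant seed genes had no count in leaf. ZS11C01G025460 had 979541 and 1009480 counts in the 2 seed libraries, or 41745 and 40087 CPM, and 0 counts in each leaf library. It was at least 297878-fold higher in seed against a floor of 6 counts per leaf library (edgeR quasi-likelihood test, Benjamini-Hochberg adjusted p = 1.57e-13). ZS11A10G002330 had 39178 and 40549.9 CPM in seed and 0 counts in each leaf library. It was at least 290220-fold higher (edgeR quasi-likelihood test, adjusted p = 2.50e-13). Both genes were far lower in the later seed tissues, at 94.2 ± 8.14 and 16.6 ± 2.12 CPM in dry seed and at 2.83 ± 0.00675 and 0.575 ± 0.102 CPM in germinating seed (SD, n = 2).

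The 2 most abundant leaf genes were also found in seed, above 100 CPM. ZS11C04G046750 had 6029 and 6079 CPM in leaf and 113 and 111 CPM in seed. It was 54.2-fold lower in seed, a log2 fold change of -5.76 (SE 0.085, edgeR quasi-likelihood test, adjusted p = 3.11e-13). ZS11A04G010660 had 6032 and 5909 CPM in leaf and 129 and 125 CPM in seed, a log2 fold change of -5.55 (SE 0.12, edgeR quasi-likelihood test, adjusted p = 4.58e-12). These genes ranked 1134 and 962 in seed, whereas the 2 leading seed genes were undetected in leaf. In germinating seed they stood at 53.2 ± 0.398 and 95.8 ± 1.75 CPM, and in dry seed at 12.8 ± 0.0194 and 16.8 ± 3.34 CPM (SD, n = 2). All 4 were picked for their level in one tissue, so their direction follows in part from that choice. The genome holds many homoeologous and tandem copies that are nearly identical. How shared reads were counted is not given in the sources used here, so the level of a single ID is uncertain. Whether counting used the strand is not stated either, so reads of a gene and an overlapping antisense gene may be mixed.

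The contrast extended down both rankings. Of the 20 most abundant seed genes, 11 had 0 counts in both leaf libraries and 17 were under 1 CPM in leaf. The exceptions were rank 4, at 3.42 and 3.02 CPM in the leaf libraries, rank 17, at 18.8 and 17.1 CPM, and rank 19, at 18.1 and 16.1 CPM. Of the 20 most abundant leaf genes, 2 had 0 counts in both seed libraries, 6 were under 1 CPM in seed and 3 were at 100 CPM or more. Leaf ranks 7 and 20 were the ones with no count, and rank 9 was the highest in seed, at 207 and 216 CPM. Among the 100 leading genes of each tissue, 82 of the seed genes were under 1 CPM in leaf and 17 of the leaf genes were under 1 CPM in seed. The lists shared 1 gene, and the lists of the 1000 leading genes shared 156. How many genes unrelated lists would share was not computed.

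**Figure D1:**
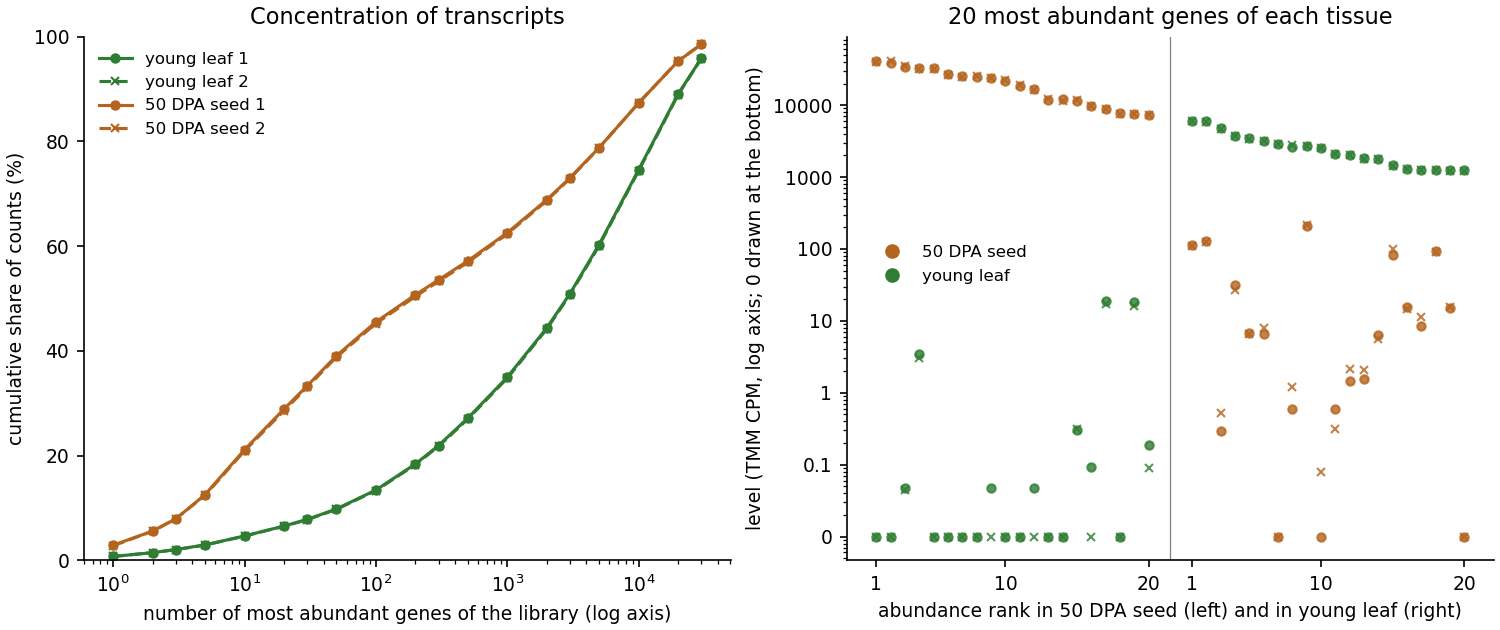
Left, cumulative share of counts (%) against the number of most abundant genes of each library (log axis), with 1 line per library. Right, level in TMM CPM (log axis, 0 drawn at the bottom) of the 20 most abundant genes of each tissue, each library as a point. The 100 leading genes hold 45.4% of seed counts and 13.4% of leaf counts, and most leading seed genes lie at 0 or under 1 CPM in leaf.

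These leading seed genes took up seed counts and almost no leaf counts. The first 10 took 21.02% ± 0.151 of seed counts and 0.000402% ± 3.7e-05 of leaf counts. The first 100 took 45.4% ± 0.222 and 0.226% ± 0.00116, and the first 1000 took 62.4% ± 0.156 and 7.56% ± 0.0212 (SD, n = 2). The genes were picked in these seed libraries, so a larger share there follows from the choice, and 2 against 2 libraries cannot give an exact 2-sided permutation p under 0.33. The same first 100 genes took 9.48% ± 0.235 of dry seed counts and 0.0821% ± 0.00516 of germinating seed counts. Of leaf counts, the first 100 leaf genes took 13.4% ± 0.07, and of 50 DPA seed counts 0.413% ± 0.00778. By subgenome, 55 of the 100 seed genes had A IDs and 45 had C IDs. Of the 100 seed genes, 4, on 1 chromosome, had an adjacent ID in the list, and 0 of the 100 leaf genes did. How many would be adjacent in a list of unrelated genes was not computed.

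Taking the leading seed genes out of the library totals shifted every other gene's ratio. On total counts alone, the median log2 ratio of seed to leaf was -0.78 over 40328 genes with more than 6 counts in all 4 libraries. It moved to -0.44 without the first 10 seed genes, to -0.07 without the first 50 and to 0.09 without the first 100. The share of these genes above 0 rose over the same steps from 27.3% to 36.8%, 48.0% and 52.6%. Leaving out the first 100 genes raised the seed scale by 0.87 on the log2 scale, and TMM factors on all genes differed between leaf and seed by 0.82. After the 100 genes were left out, TMM factors were 1.03 in both leaf libraries and 1.04 in both seed libraries. On the TMM scale the median ratio of the same genes moved little, from 0.04 with none left out to 0.07 without the first 100. TMM trims genes with extreme ratios and levels, so leaving out the leading seed genes could hardly move it. Over all genes tested, which include those with few counts, the median log2 fold change with TMM was -0.20.

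How many genes counted as higher in seed therefore rested on the scale. With TMM, 41013 of 59062 genes tested changed between 50 DPA seed and leaf (69.4%; edgeR quasi-likelihood test, Benjamini-Hochberg adjusted p under 0.05). Of all genes tested, 18218 were higher in seed (30.8%) and 22795 were lower (38.6%), so 44.4% of changed genes were higher. With total counts alone, 10473 were higher and 33449 lower, or 23.8% higher. Size factors of DESeq2, upper-quartile factors and totals without the 100 leading seed genes put that share at 43.9%, 45.7% and 45.6%. With 69.4% of genes called, the premise of TMM that most genes do not change is not borne out by the calls. DESeq2 size factors and upper-quartile factors rest on a related premise, so their shares are no independent check. The median log2 fold change of all genes tested was -0.20 with TMM and -1.02 with total counts, and directions below are relative to the TMM scale.

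On all 5 scales, 10473 genes were higher in seed, which is 57.5% of those called higher with TMM, and 22270 were lower, which is 97.7% of those called lower. The scales differ mainly by 1 shift common to all genes, of at most 0.87 on the log2 scale, so changes far larger than that could not turn. Of 5911 genes called 2 to 4-fold higher, 3587 were called higher on all 5 scales, and of 5651 called less than 2-fold higher, 335 were. A further 1321 genes were called in opposite directions on some pair of scales.

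**Figure D2:**
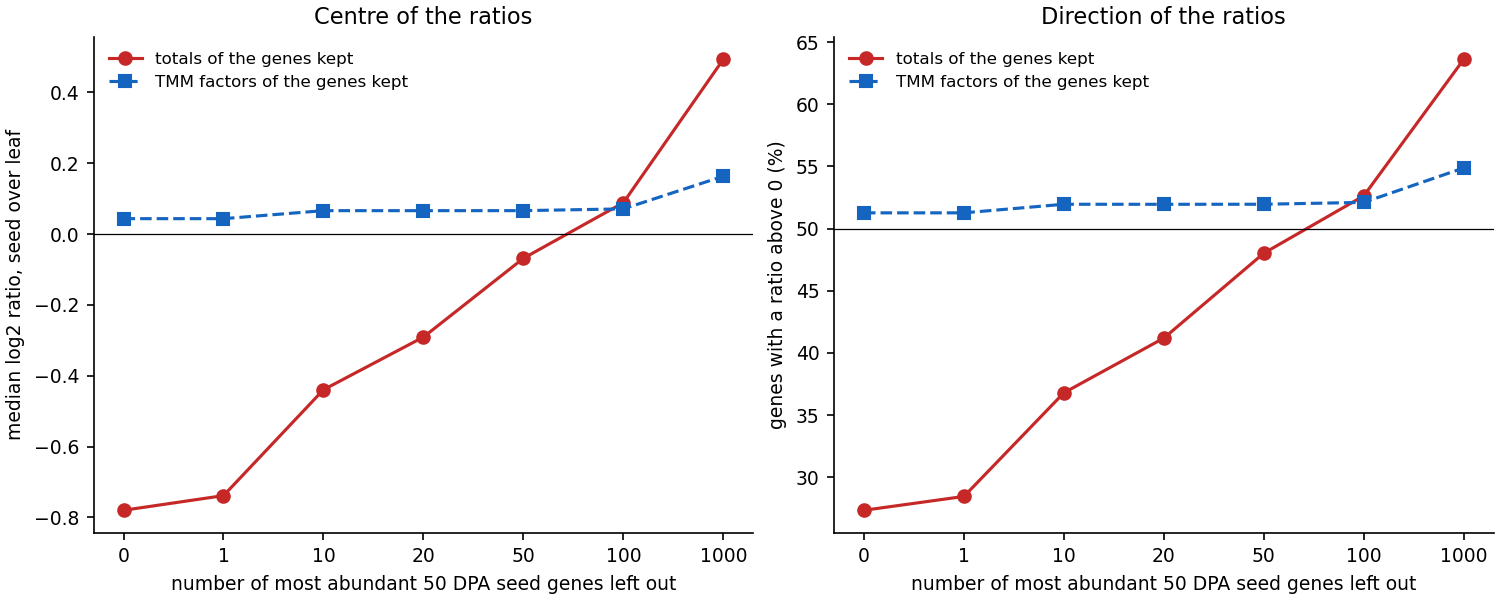
Median log2 ratio of 50 DPA seed to leaf (left) and percentage of genes with a ratio above 0 (right), against the number of most abundant seed genes left out, with red circles for total counts and blue squares for TMM factors. On total counts the median climbs from -0.78 with all genes to 0.09 without 100 genes and 0.49 without 1000, while on TMM it stays between 0.04 and 0.16.

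The spread of fold changes was large beside the spread between libraries at every level. Ratios were computed with each tissue set to at least 0.247 CPM, the seed floor of 6 counts, which left 3496 tested genes below the floor in both tissues and 55566 to describe. Their log2 ratios had a median of -0.20 and an interquartile range of 2.54. The same range between the 2 libraries of one tissue was 0.226 in leaf and 0.355 in seed. Library values were set to the same floor, so genes at the floor in both libraries add ratios of 0 and narrow this range. In seed it was 0.665 at 1 to 3 CPM and 0.263 under 1 CPM. Multiples of this range are therefore set in part by the floor. By mean level over the 4 libraries, the range between tissues was from 4.45 times that of the noisier tissue, under 1 CPM, to 142 times, at 300 to 1000 CPM.

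The interquartile range between tissues was 3.27 at 1 to 3 CPM, 2.40 at 3 to 10 CPM and 2.09 at 10 to 30 CPM. It then widened to 2.63 at 30 to 100 CPM, 7.05 at 100 to 300 CPM and 16.1 at 300 to 1000 CPM. At 1000 CPM or more it was 4.70 around a median of 13.55, and 69 of these 81 genes were called higher in seed. The floor also limits ratios in the upper classes. At the median level of a class, the largest measurable log2 ratio was 11.80 at 300 to 1000 CPM and 14.12 at 1000 CPM or more. The upper quartile at 300 to 1000 CPM was 11.74, so the values in these 2 classes depend on the floor. The share of genes at least 16-fold apart was 0% under 1 CPM, where the floor allows no such ratio, 13.0% at 10 to 30 CPM and 95.1% at 1000 CPM or more. Called higher were 16.3% of genes under 1 CPM, 44.0% at 10 to 30 CPM and 85.2% at 1000 CPM or more, beside 30.8% of all genes tested.

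A mean over the tissues is set by the higher one, so genes used by one tissue gather in the upper classes. With the geometric mean of the tissues as the level, a measure chosen after seeing the data, the interquartile range at 300 to 1000 CPM was 2.01 over 39 genes. With the level taken from the dry and germinating seed libraries, also chosen after seeing the data, it was 8.34 over 185 genes. At 10 to 30 CPM these measures gave 1.70 and 1.66. At 300 to 1000 CPM the range between tissues was then 26.1 and 69.2 times that between libraries of the noisier tissue, and the smallest such ratio over the classes was 4.75 and 4.23. The narrowest class moved to 30 to 100 CPM with the second measure, at 1.55. Direction and size of the changes also depended on the measure of level. At 300 to 1000 CPM, 58.6% of genes were called higher by mean level, 48.7% by the geometric mean and 80.6% by the second measure. The share at least 16-fold apart in that class was 72.4%, 15.4% and 37.8%.

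**Figure D3:**
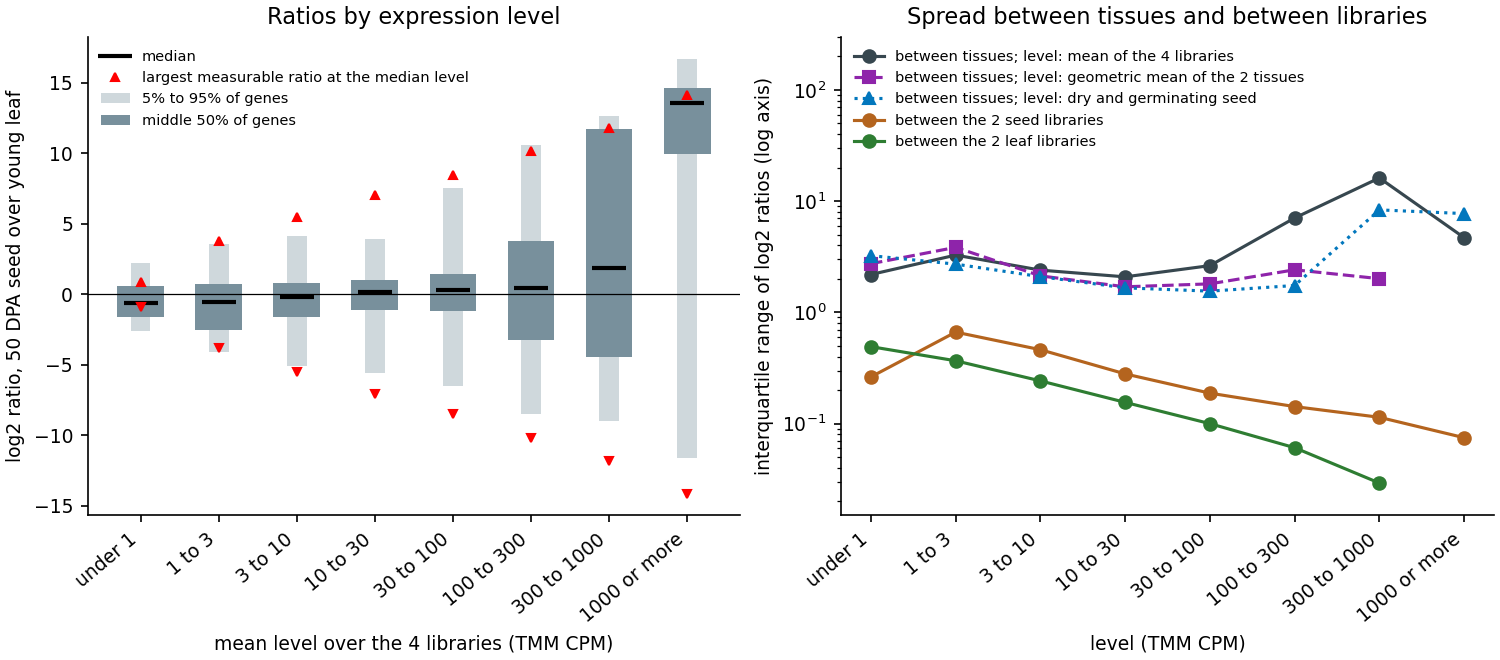
Left, log2 ratio of 50 DPA seed to leaf by mean level in TMM CPM, with the median as a line, the middle 50% of genes and 5% to 95% of genes as boxes, and triangles for the largest ratio the floor allows at the median level of a class. Right, interquartile range of log2 ratios (log axis) between tissues by 3 measures of level, and between the 2 libraries of each tissue. The leaf value at 1000 CPM or more is 0 and the geometric class with 1 gene is left out, so neither is drawn. By mean level over the 4 libraries, the range between tissues is 4.45 to 142 times that between libraries of the noisier tissue.

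Most calls were of moderate size. Among the 41013 changed genes, 12567 were at least 2-fold higher and 18008 at least 2-fold lower, while 10438 (25.5%) changed by less than 2-fold. At least 16-fold were 2552 higher and 3991 lower, and at least 256-fold were 488 higher and 236 lower, so the lower genes outnumbered the higher ones up to 16-fold and not at 256-fold. A further 1209 genes were at least 2-fold apart and did not pass the test, at a median of 0.625 CPM. For 10955 genes (18.5%) the 95% interval of the log2 fold change lay within 2-fold either way, and 3689 of these passed the test.

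The ratios repeated between libraries. Ratios from the first seed and leaf libraries and from the second differed by a median of 0.261 on the log2 scale. Of the called genes, 5 had opposite signs in the 2 pairs, beside 4401 of the 15086 genes above the floor that were not called. The calls were made on the same libraries, so few opposite signs among called genes follow in part from the test. Across genes, which are not independent replicates, Pearson's r between the pairs was 0.975.

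Genes of the most extreme higher class took a large part of the seed counts. The classes were set by the ratio in these same libraries, so which tissue has the larger share follows from the definition. The 488 genes at least 256-fold higher, 0.878% of those described, took 52.1% ± 0.268 of seed counts and 0.0147% ± 0.000313 of leaf counts. In dry seed their share was 20.7% and 21.9% by library, and in germinating seed it was 1.28% and 1.23%. The 236 genes at least 256-fold lower took 9.63% ± 0.0161 of leaf counts and 0.00684% ± 2.4e-05 of seed counts. Between these ends, 23795 genes within 2-fold (42.8%) took 33.3% ± 0.0438 of leaf counts and 20.3% ± 0.169 of seed counts (SD, n = 2).

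A minority of the genes abundant in one tissue were abundant in both. At 100 CPM or more in every library were 1250 genes in seed and 984 in leaf, of which 180 were the same. How many genes unrelated lists of these sizes would share was not computed. Within these 180, 79 were higher in seed (43.9%), 66 were lower (36.7%) and 35 did not pass the test. Over all genes tested the shares were 30.8% higher and 38.6% lower, and 80.6% of the 180 were called against 69.4% of all. The median SE of the log2 fold change was 0.114 at 100 to 300 CPM and 0.303 over all genes tested. The ratio was within 2-fold for 133 of them and at least 16-fold for 2, which were the 2 leading leaf genes above. Together they took 3.14% ± 0.0306 of seed counts and 6.72% ± 0.0244 of leaf counts (SD, n = 2).

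Genes on in one tissue and without a count in the other were more numerous on the leaf side and more abundant on the seed side. At 1 CPM or more in both libraries were 37047 genes in seed, of which 1114 (3.01%) had 0 counts in both leaf libraries. Leaf had 42077 such genes, of which 2498 (5.94%) had 0 counts in both seed libraries. At 10 CPM the counts were 484 of 15355 and 590 of 16312. At 100 CPM they were 197 of 1250 (15.8%) and 51 of 984 (5.18%), and at 1000 CPM 62 of 118 (52.5%) and 3 of 25 (12%). The order of the tissues thus turned between 10 and 100 CPM.

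A count of 0 allows up to 0.137 CPM in leaf and 0.247 CPM in seed at the floor of 6 counts. With 0.247 CPM as the limit of off in both tissues, the genes on at 1 CPM and off in the other tissue numbered 2541 for seed and 4982 for leaf. At 100 CPM they numbered 308 and 91. The seed set of 1114 took 31.9% ± 0.183 of seed counts and the leaf set of 2498 took 4.66% ± 0.00409 of leaf counts (SD, n = 2). All of both sets passed the test, as their definition nearly requires, so the 69.4% called among all genes is no yardstick for them.

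These sets differed in the later seed tissues. Of all 106059 IDs, 34141 and 34278 were at 1 CPM or more in the 2 dry seed libraries. In the 2 germinating seed libraries 40606 and 40684 were. Of the 1114 genes on in 50 DPA seed and off in leaf, 462 (41.5%) were at 1 CPM or more in both dry seed libraries and 197 (17.7%) in both germinating seed libraries. Among the 62 at 1000 CPM or more, 60 and 34 were. Of the 2498 genes on in leaf and off in 50 DPA seed, 50 (2.0%) were at 1 CPM or more in dry seed and 792 (31.7%) in germinating seed. None of the 51 at 100 CPM or more in leaf was at 1 CPM or more in both dry seed libraries, and 20 were in both germinating seed libraries. In counts, the 1114 genes took 12.6% ± 0.374 of dry seed and 0.754% ± 0.015 of germinating seed, and the 2498 took 0.0451% ± 0.000879 and 1.13% ± 0.0244 (SD, n = 2). Both subgenomes contributed, with 564 A and 546 C genes in the seed set and 1214 A and 1281 C genes in the leaf set. These are 3.19% and 2.83% of the A and C genes on in seed, and 6.11% and 5.78% of those on in leaf.

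**Figure D4:**
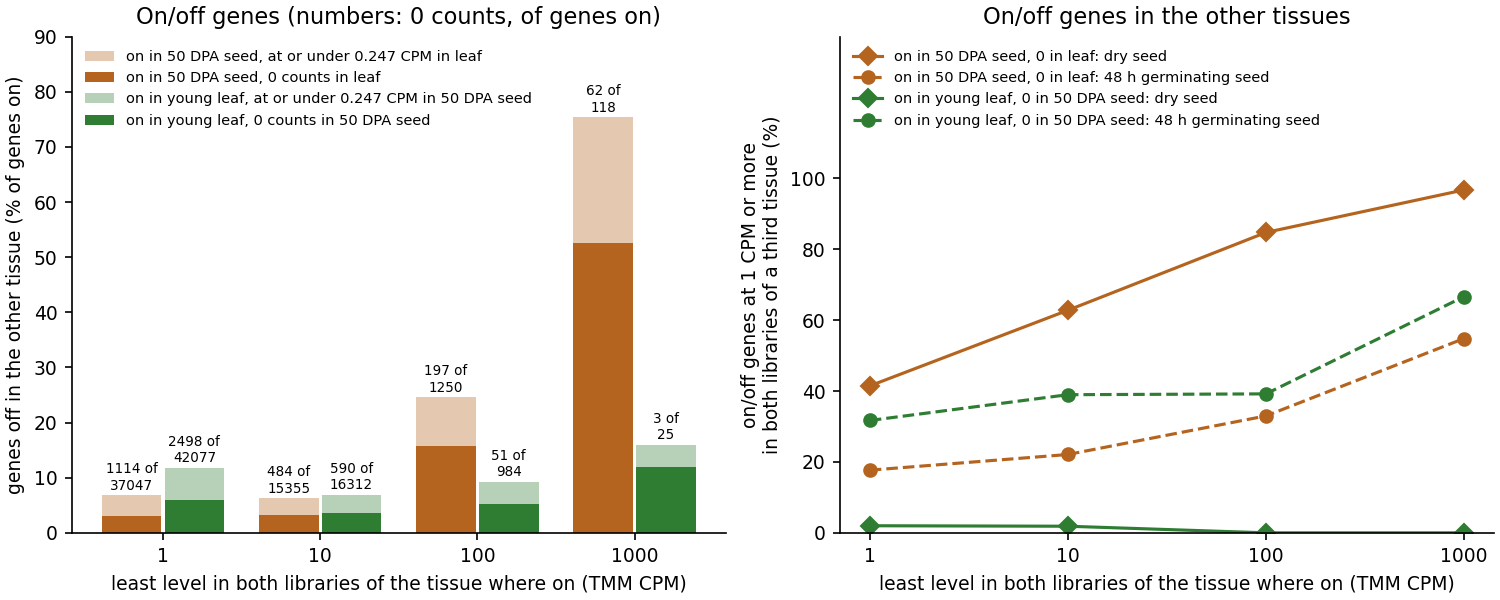
Left, genes off in the other tissue as a percentage of genes on, by least level in both libraries (TMM CPM), with dark bars for 0 counts and pale bars for 0.247 CPM or less. Right, percentage of the genes with 0 counts that are at 1 CPM or more in dry and in germinating seed. The seed bars exceed the leaf bars from 100 CPM, and leaf genes off in 50 DPA seed stay near 0% in dry seed.

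A IDs were called higher slightly more often than C IDs, and called lower about equally often. Of 27589 A genes tested, 32.2% were higher in seed and 38.4% lower, and of 31359 C genes 29.7% and 38.8%. Over chromosomes, which are not replicates, the share higher was 32.3% ± 1.77 for 10 A prefixes and 29.7% ± 1.34 for 9 C prefixes (SD). It was greater in A than in the same-numbered C prefix for each of the 9 numbers, by 1.08 to 3.30 percentage points. It was greater in A in each level class except 1000 CPM or more, where 82.9% of A and 87.5% of C genes were higher. The filter on low counts had kept 62.2% of A IDs and 51.4% of C IDs. With no filter, the share higher in A minus that in C was 3.76 percentage points in place of 2.47. The share lower in A minus that in C was -0.34 percentage points, and it had the opposite sign, 0.0856 to 0.524, when any 1 of the 4 libraries was left out, and was 1.78 with no filter.

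Among chromosome prefixes, A10 and C02 stood at the ends. On A10, 36.7% of genes were higher in seed and 34.2% lower, and A10 was the only prefix with a median log2 ratio above 0, at 0.07. In each of the 4 pairings of a seed with a leaf library, which reuse the same 4 libraries, that median lay between 0.02 and 0.09. On C02, 27.4% were higher and 40.4% lower, with a median of -0.36. A10 had the highest and C02 the lowest share of higher genes on all 5 scales. The scales differ mainly by 1 shift common to all genes, so this order could hardly change between them. The median level was 3.21 CPM on C02, the lowest of any prefix, and 4.95 CPM on A10, below the 5.25 CPM of A06. The share called higher varied with level, and whether level accounts for these ends was not tested. The other A prefixes ran from 30.7% to 33.1% higher and the other C prefixes from 28.2% to 31.4%.

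Shares of counts by chromosome followed the leading genes more than the calls did. Genes with C01 IDs took 13.0% ± 0.103 of seed counts and 5.21% ± 0.0076 of leaf counts, and A01 took 9.93% ± 0.09 and 4.64% ± 0.00248 (SD, n = 2). The 10 leading seed genes include 4 on C01 and 2 on A01. Without the 100 leading seed genes, C01 took 5.23% of seed counts and 5.22% of leaf counts, and A01 took 4.61% and 4.66%. A10, which holds the second seed gene named above, took 5.39% of seed and 3.19% of leaf counts. Its seed to leaf ratio was 1.69 with all genes, 1.05 without the first 10, 1.16 without the first 20 and 1.33 without the first 100. A04 took less in seed, 2.95% against 5.39%, and its ratio was 0.547 with all genes, 0.693 without the first 10, 0.768 without the first 20 and 0.595 without the first 100. It holds the second leaf gene named above.

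Summed over the genome, the subgenomes kept their shares. A IDs took 49.03% ± 0.0146 of seed counts and 49.09% ± 0.0358 of leaf counts (SD, n = 2). This near equality moved with single genes on the seed side. Without the leading seed gene, which is on C01, the A share of seed counts was 50.5%, without the first 10 genes it was 52.1% and without the first 100 it was 50.0%, while the leaf share stayed at 49.1%.

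**Figure D5:**
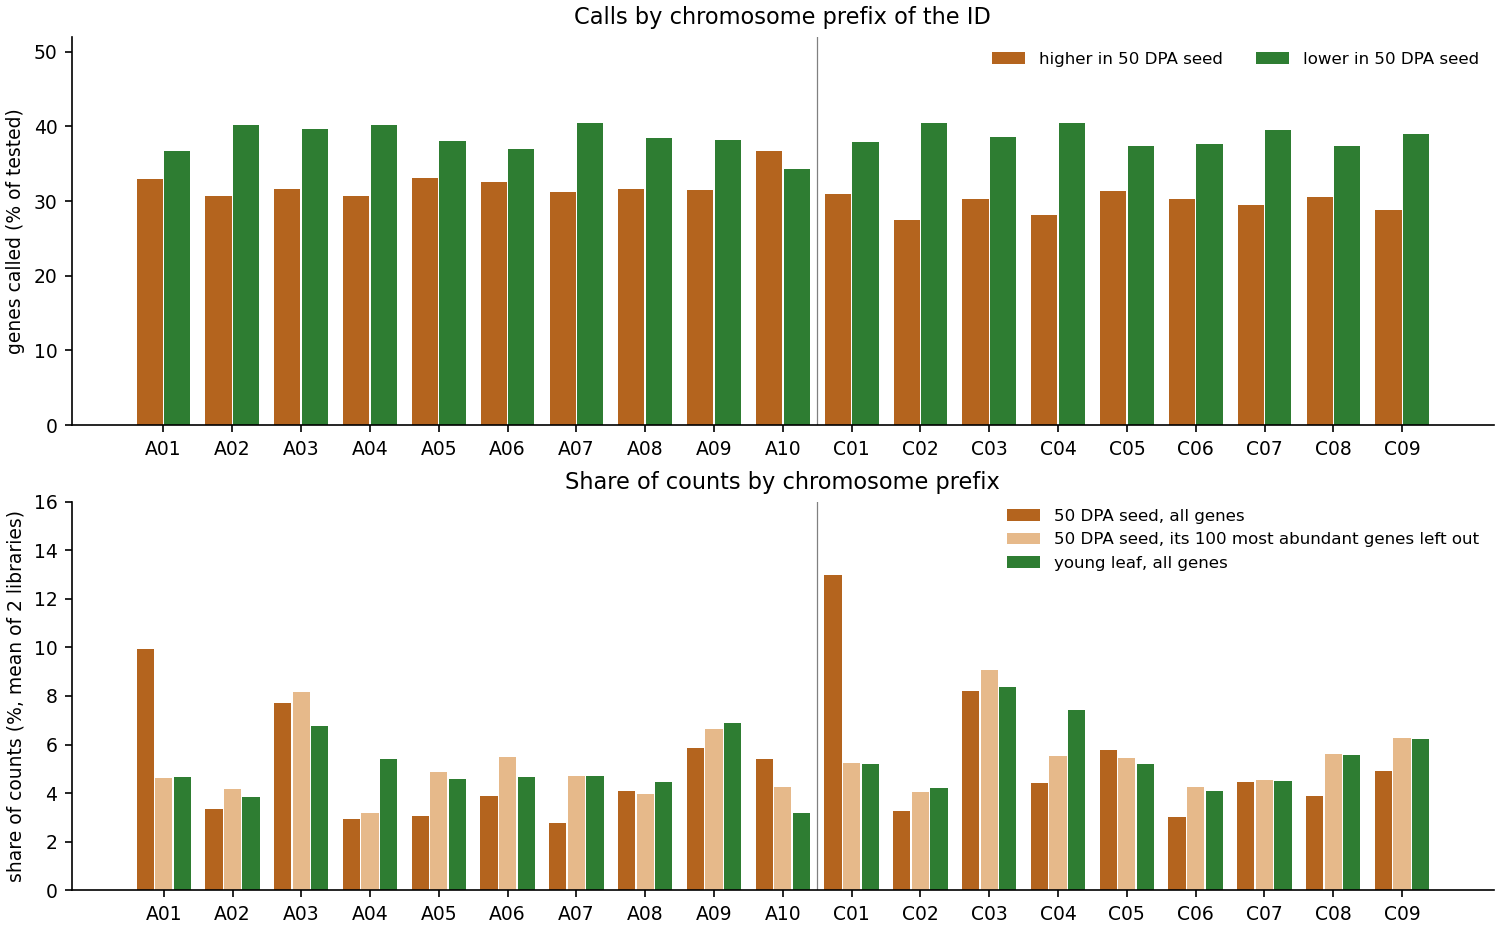
Percentage of tested genes called higher and lower in 50 DPA seed by chromosome prefix of the ID (top), and each prefix's share of counts (%, mean of 2 libraries) in seed with all genes, in seed without its 100 leading genes and in leaf (bottom). A10 has the highest share of higher genes, 36.7%, and the excess of C01 and A01 in seed counts is gone without the 100 genes.

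Dry and germinating seed were set against the same 2 leaf libraries, so the comparisons share their controls and are given side by side only. Genes changed were 69.4% for 50 DPA seed, 77.4% for dry seed and 65.7% for germinating seed. The interquartile range of the log2 ratio, on the same floor, was 2.54, 3.44 and 2.12, and the share at least 16-fold apart was 11.8%, 15.5% and 6.63%. Genes at 1 CPM or more with no count in leaf numbered 1114, 732 and 760. Genes at 1 CPM or more in leaf with no count in the seed tissue numbered 2498, 4759 and 654. These numbers rest on counts of 0, without the common floor. The mean floor of 6 counts was finest for the germinating libraries (0.0944 CPM), beside 0.221 for the dry ones and 0.247 at 50 DPA. A count of 0 is thus a stricter limit in germinating seed, and how much of the difference follows from this was not tested.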

How the data were processed

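Whole-number counts per gene were deposited by the authors in 1 table of 4 tissues, 2 libraries each. The tools named per the submitters' processing notes are FastQC, HISAT2, SAMtools and edgeR, whose versions, like the read counter, genome build and annotation, were not given in the sources used here. One line inside the table holds alignment file names where a gene ID belongs, and it was removed. Between 80.5% and 85.4% of values above 0 per library were even, as happens where each mate of a pair adds a count, so the floor was set at 6 counts, or 3 read pairs. Floors cover counting error only. The SE of a log2 fold change is its absolute value divided by the square root of the F statistic of the quasi-likelihood test. Intervals built on it include the estimated spread between libraries of a tissue, which may be technical.

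Genes were kept with filterByExpr over all 8 libraries (59062 genes), scaled by TMM and tested 2-sided by the quasi-likelihood test of edgeR 4.0.16 (R 4.3.3, limma 3.58.1), with 1 mean per tissue, no covariate and 1 shared spread per gene. The p-values were adjusted by Benjamini-Hochberg over all genes tested, at 0.05. Ratios by level used mean TMM CPM with each tissue set to at least 0.247 CPM. The procedure was tested on simulated data, whose settings and outcome are not given here. Simulated counts cannot show whether the premise of TMM, that most genes do not change, holds in these libraries. No conclusion about the calls is therefore drawn from that test.

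Since IDs have no names, the genes named are the 2 per direction with the highest mean level in the higher tissue, among genes past the threshold whose libraries do not overlap. The comparison, its measures and its rules were chosen with earlier results of these data known. Alternatives were DESeq2 1.42.0, other scales, no filter, 4 libraries only, a replicate block, halved counts and leaving out each library. No sequence is printed, and normalized tables were not used here.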

Additional observations from a re-analysis of the deposited data

How the results depend on the processing

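All 4 named genes kept their direction in each of 13 other fits. They were picked from these same libraries for their high level, so other fits of the same counts could hardly turn them. The count of changed genes, 41013, ran from 34220 to 37452 when 1 library was left out, with 15138 to 17991 higher and 18980 to 19461 lower in seed. Genes on in one tissue with no count in the other then numbered 1277 to 1354 for seed and 2656 to 3348 for leaf, since fewer libraries must then meet the definition. Total counts alone left 10473 genes higher. With one common floor, the genes on in one tissue and off in the other numbered 2541 for seed and 4982 for leaf.

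The median log2 fold change, -0.20, was -0.21 with the DESeq2 test and with its size factors, -0.15 with upper-quartile factors and with totals without 100 genes, and -1.02 with total counts. It was -0.12 with no filter, -0.17 with halved counts, and -0.16 to -0.12 with 1 library left out. The interquartile range of fitted log2 fold changes, 3.10, was 3.05 with DESeq2, 3.45 with no filter, 3.06 with 4 libraries only, 2.95 with halved counts and 3.08 to 3.36 with 1 library left out.

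The share higher in A minus that in C, 2.47 percentage points, was 2.61 with DESeq2, 2.57 with its size factors, 1.92 with total counts, 3.76 with no filter, 2.21 with halved counts, 2.56 as a mean over prefixes and 2.68 to 2.83 with 1 library left out. The share lower in A minus that in C, -0.34 percentage points, was -0.0379 with DESeq2, -0.853 with total counts, -0.997 with 4 libraries only and -0.795 with halved counts. It turned positive with no filter, at 1.78, and without each library in turn, at 0.489 and 0.524 without leaf 1 and 2 and at 0.377 and 0.0856 without seed 1 and 2. The cause was not tested.

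Leaf and seed libraries of the same number did not deviate together across genes (Pearson's r = -0.00831). With 2 libraries a tissue, this cannot show whether libraries of the same number were collected or prepared together. With the replicate block, 38985 genes changed, the median was -0.20 and the difference between A and C in the share higher was 2.61 points. Level measured by the geometric mean or in other tissues was chosen after seeing the data. Limits are 2 libraries a tissue, IDs without names or coordinates, and low counts. Genes under 1 CPM had a median SE of 1.06, against 0.153 at 10 to 30 CPM.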

Other observations

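Along the order of IDs on each chromosome, 578 windows of 100 consecutive tested genes were described. Genes higher in 50 DPA seed made up 14% to 45% of a window, with a median of 31%, and lower genes 20% to 54%, with a median of 39%. The middle 90% of windows had 22% to 40% higher. The largest share higher, 45%, was found in a window on A08 and in a window on A10. Both had 32% lower, and their median log2 ratios were 0.75 and 0.34. The window with the largest share lower was on A07, with 54% lower, 26% higher and a median of -1.25.

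Seed counts were gathered in few windows. One window on A01 took 3.35% of seed counts and 0.161% of leaf counts. One on A10 took 2.94% and 0.137%, and one on C01 took 2.89% and 0.111%. Single genes made up most of the seed share of the A10 and C01 windows. ZS11A10G002330 alone held 2.75% of seed counts, and ZS11C01G025460 held 2.83%. The median window took 0.0953% of seed and 0.149% of leaf counts. Windows were formed after seeing the data, no test was made of them, and IDs stand in for positions.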
